A study of Mus musculus with 12 samples.

Results

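Ntn4, Tent5b and Ppfibp2 are 3 of the 7902 genes in count tables from mouse skin. They were chosen by gene symbol because, among genes lower in the extract-treated group than in the untreated ageing model, they had the 3 smallest p-values of all 7638 genes tested. Their difference between those groups is therefore described here and not tested. The 12 skin samples formed 3 groups of 4. In M+NSPCC1 mice, D-galactose and UVA/B light produced the ageing model, and a grape seed extract called NSPCC1 was the treatment. Model mice had D-galactose and UVA/B without the extract, and Ctrl mice were the controls. Excess D-galactose is used to age tissue through oxidation and glycation. Neither strain, age, sex, dose, duration nor body site was stated in the labels. Nor did they state that each sample was another animal, so the p-values measure only the spread between samples, which may be technical.

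Ntn4 encodes netrin-4, a secreted protein related to laminins. It binds the short arm of laminin gamma chains and can loosen laminin networks in basement membranes, the sheets that lie under epithelia and around vessels. Tent5b encodes a terminal nucleotidyltransferase, an enzyme of the TENT5 family (formerly Fam46) that adds adenosines to the 3' ends of messenger RNAs in the cytoplasm. Ppfibp2 encodes liprin-beta-2, a scaffold protein that pairs with alpha liprins; alpha liprins bind receptor protein tyrosine phosphatases of the LAR type at adhesion sites and synapses. The 3 proteins belong to different families.

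The genes lie on different chromosomes of the GRCm38 (mm10) assembly. In GENCODE M21, Ntn4 spans chromosome 10, 93640681 to 93747207, and its longest transcript by exon number has 10 exons. Tent5b spans chromosome 4, 133480132 to 133487938, with 2 exons. Ppfibp2 spans chromosome 7, 107595207 to 107748583, with up to 26 exons. All 3 are on the plus strand. Each overlaps genes on the other strand. For Ntn4 these are the antisense genes Gm15915 and Gm15963 and the pseudogene Gm8580, for Tent5b the antisense gene Gm13257, and for Ppfibp2 the protein-coding genes 5330417H12Rik and Cyb5r2. Ppfibp2 also overlaps the gene Gm44772 on its own strand. No source used here states whether counting used the strand, so reads from partners on the other strand cannot be told apart. Reads from Gm44772 could not be set apart by strand in any case.

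The start regions of the 3 genes are shown as a description. That the genes moved together between M+NSPCC1 and Model is fixed by their choice. Each sequence runs from 250 bases before to 50 bases after an annotated start, on the plus strand, from RefSeq on GRCm38.p6. Capitals mark matches, on either strand, to 6 short motifs: TATAAA, the core of the TATA box; CCAAT, that of the CCAAT box; GGGCGG, that of the GC box; TGANTCA, the site of AP-1 factors; CTTTGA, that of TCF/LEF factors; and AGATAA, that of GATA factors.
Ntn4, chr10:93640799-93641098: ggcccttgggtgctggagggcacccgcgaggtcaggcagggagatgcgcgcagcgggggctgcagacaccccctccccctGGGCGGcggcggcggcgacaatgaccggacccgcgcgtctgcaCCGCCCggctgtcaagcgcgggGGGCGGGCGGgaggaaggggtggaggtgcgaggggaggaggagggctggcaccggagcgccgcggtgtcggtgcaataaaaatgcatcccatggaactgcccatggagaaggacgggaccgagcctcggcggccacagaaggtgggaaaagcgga
Tent5b, chr4:133479883-133480182: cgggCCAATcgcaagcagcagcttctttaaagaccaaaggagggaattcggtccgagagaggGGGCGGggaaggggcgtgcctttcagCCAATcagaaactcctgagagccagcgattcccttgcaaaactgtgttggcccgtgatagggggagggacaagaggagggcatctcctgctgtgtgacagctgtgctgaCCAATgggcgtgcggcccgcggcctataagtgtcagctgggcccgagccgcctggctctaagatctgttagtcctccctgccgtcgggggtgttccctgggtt
Ppfibp2, chr7:107594801-107595100: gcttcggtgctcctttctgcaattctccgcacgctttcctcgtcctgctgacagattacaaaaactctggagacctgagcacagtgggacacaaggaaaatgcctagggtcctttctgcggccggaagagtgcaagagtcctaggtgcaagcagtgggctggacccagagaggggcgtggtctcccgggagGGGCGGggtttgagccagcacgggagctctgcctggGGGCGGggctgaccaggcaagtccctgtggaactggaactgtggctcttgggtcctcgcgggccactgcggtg
The Ntn4 region held 4 GGGCGG matches, of which 2 overlapped each other, and had a GC content of 72.0%. The Tent5b region held 3 CCAAT matches and 1 GGGCGG match, with a GC content of 60.7%. The Ppfibp2 region held 2 GGGCGG matches, with a GC content of 62%. Of 32544 such regions in the RefSeq table, 35.9% held GGGCGG and 37.4% held CCAAT, and 3.35% held 3 or more CCAAT matches. The median GC content was 53.0%. TATAAA was present in 13.6%, TGANTCA in 7.79%, CTTTGA in 16% and AGATAA in 11.2% of all regions, and none of these 4 was in the 3 regions printed. RefSeq lists 3 further start regions for Ppfibp2, of which 1 held TATAAA and none held another of the motifs. Ppfibp2 has 17 RefSeq transcripts, 5 of them curated, against 1 each for Ntn4 and Tent5b. The tables hold 1 row for each gene. The estimated counts of Ppfibp2 were not whole numbers in any library, so its values describe the transcript listed and perhaps not the whole gene.

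Per transcript length, Tent5b was the most abundant of the 3 in every group. Its FPKM (a level per transcript length and per depth) averaged 49.2 ± 7.31 in M+NSPCC1, 74.1 ± 4.27 in Model and 8.51 ± 0.689 in Ctrl (SD, n = 4 each). Ntn4 averaged 10.8 ± 0.757 FPKM in M+NSPCC1, 16.7 ± 2.14 in Model and 5.89 ± 0.494 in Ctrl (SD, n = 4 each). Ppfibp2 averaged 11.8 ± 0.921 FPKM in M+NSPCC1, 16.2 ± 0.787 in Model and 5.42 ± 0.146 in Ctrl (SD, n = 4 each). The Tent5b libraries lay above those of the other 2 genes in each group without overlap, while Ntn4 and Ppfibp2 overlapped each other in every group.

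All 3 genes were higher in the ageing model, with and without the extract, than in control skin, and stood lower with the extract than without it. The values that follow are scaled counts (CPM, counts scaled to the library total with TMM factors) in libraries 1 to 4 of each group. Ntn4 had 34.8, 37.4, 37.6 and 40.2 CPM in M+NSPCC1, against 53.9, 52.1, 64.1 and 67.6 CPM in Model and 22.0, 26.6, 23.7 and 22.3 CPM in Ctrl libraries. The 3 groups did not overlap, and the 4 Model libraries fell into a lower and a higher pair. Tent5b had 135.5, 168.1, 187.1 and 150.7 CPM in M+NSPCC1, against 223.8, 254.3, 259.1 and 256.1 CPM in Model and 33.4, 28.6, 35.0 and 31.8 CPM in Ctrl libraries. Here too the groups did not overlap, and Model 1 stood below the other Model libraries. Ppfibp2 had 47.4, 56.5, 48.7 and 51.1 CPM in M+NSPCC1, against 73.2, 67.2, 77.0 and 69.7 CPM in Model and 27.5, 28.1, 26.8 and 26.2 CPM in Ctrl libraries. Its Ctrl libraries differed least, with a coefficient of variation of 2.94%. In bulk skin, fewer cells of a type and less RNA per cell cannot be told apart.

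**Figure D1:**
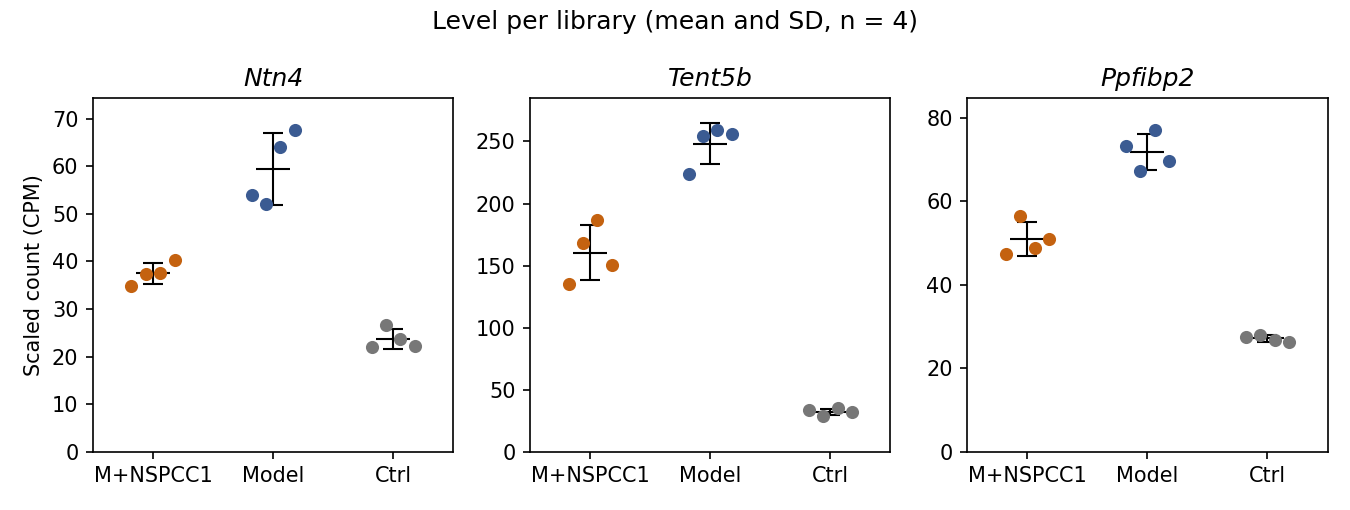
Scaled count (CPM) of Ntn4, Tent5b and Ppfibp2 in every library of M+NSPCC1, Model and Ctrl skin (points), with the mean and SD of each group of 4 (black). In each panel the M+NSPCC1 points lie above all Ctrl and below all Model points; Tent5b spans the widest range, from 28.6 to 259.1 CPM.

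The spread within groups was small for 2 of the genes in Model skin. The SD of log2 CPM was 0.099 for Tent5b, 0.085 for Ppfibp2 and 0.184 for Ntn4 in Model libraries, where the median over 6275 genes averaging 10 CPM or more was 0.243. In M+NSPCC1 libraries it was 0.201 for Tent5b, 0.111 for Ppfibp2 and 0.084 for Ntn4, where the median was 0.145. In Ctrl libraries it was 0.124 for Ntn4 and Tent5b and 0.042 for Ppfibp2, where the median was 0.147. Tent5b was thus the only one of the 3 with a wider spread than the median gene in any group, in M+NSPCC1. A small spread favours a small p-value, so the choice of the genes bears on these values.

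The mean of Model and M+NSPCC1 was tested over Ctrl. The estimated difference does not depend on the difference between Model and M+NSPCC1 that chose the genes. Its SE and p-value use the same fit and estimate of spread as that difference, so they are not free of the choice. Hair and muscle gene shares also differed between the model groups and Ctrl, and their part in this contrast was not tested. All 3 rose. The log2 fold change was 2.63 for Tent5b (SE 0.10; adjusted p = 1.1e-08), 1.15 for Ppfibp2 (SE 0.07; adjusted p = 9.57e-08) and 0.995 for Ntn4 (SE 0.10; adjusted p = 2.06e-06). The p-values are from edgeR's quasi-likelihood fit and were adjusted by Benjamini-Hochberg over 7638 genes. Each was higher in 8 of 8 model libraries than in every Ctrl library. Of all tested genes 51.5% rose in this contrast and 41.1% had all model libraries above all Ctrl libraries, and the 3 of 3 is to be read against those shares. The tables hold only part of the transcriptome, with 7869 of 21900 protein-coding genes, and 94.9% of tested genes passed in either direction. Over all tested genes the median was 0.269 on the log2 scale, and relative to it Tent5b, Ppfibp2 and Ntn4 stood at 2.36, 0.89 and 0.73. With DESeq2's size factors the median was 0.103, and with scaling by whole-library depth it was 0.465; all 3 genes rose under each scaling.

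With the extract the genes stood between the other groups. The log2 fold change of M+NSPCC1 over Model was -0.66 for Ntn4 (SE 0.11), -0.63 for Tent5b (SE 0.10) and -0.50 for Ppfibp2 (SE 0.08). As linear ratios these are 0.632, 0.646 and 0.709. The median of all tested genes was 0.01. Every M+NSPCC1 library lay below every Model library for the 3 genes, as for 2.88% of all tested genes, a count that the choice of the genes fixes. By edgeR 0.00% of tested genes passed after adjustment, while 502 (6.57%) had an unadjusted p under 0.05. DESeq2 called 60 genes lower (0.771% of those it tested) and 16 higher (0.205%). At the edge of the choice, Tent5b was the third gene by p among those lower in M+NSPCC1. The next was Car6, a secreted carbonic anhydrase, with 36.0 CPM on average in M+NSPCC1, 104 in Model and 2.18 in Ctrl skin (log2 fold change of M+NSPCC1 over Model -1.53, SE 0.29). After it came Dsc2, a desmosomal cadherin, with 43.4, 64.6 and 9.92 CPM in M+NSPCC1, Model and Ctrl (-0.57, SE 0.11). These genes, too, had their Ctrl mean below both other means.

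None of the 3 returned to the Ctrl level. The log2 fold change of M+NSPCC1 over Ctrl was 2.31 for Tent5b (SE 0.11), 0.91 for Ppfibp2 (SE 0.08) and 0.66 for Ntn4 (SE 0.11). That of Model over Ctrl was 2.95 for Tent5b (SE 0.11), 1.40 for Ppfibp2 (SE 0.08) and 1.33 for Ntn4 (SE 0.11). Both contrasts use the same Ctrl libraries, and each shares libraries with the contrast that chose the genes, so they are given as values. On the CPM scale the M+NSPCC1 mean had covered 61.3% of the distance from the Model to the Ctrl mean for Ntn4, 46.8% for Ppfibp2 and 40.7% for Tent5b. On the log2 CPM scale these shares were 49.7%, 35.5% and 21.7%. Ntn4 was thus closest to Ctrl and Tent5b farthest on both scales. With any 1 of the 12 libraries left out, the CPM shares ranged from 58.1% to 63.8% for Ntn4, from 44.1% to 50.9% for Ppfibp2 and from 36.9% to 44.8% for Tent5b. Of all tested genes 53.1% had their M+NSPCC1 mean between the Ctrl and Model means. Among the 3932 genes that rose over Ctrl, 53.3% had a lower mean in M+NSPCC1 than in Model. Every M+NSPCC1 library lay above every Ctrl and below every Model library for 2.25% of tested genes, the 3 included. The lower side of that count is again fixed by the choice of the genes.

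The genes around each of the 3 were taken from lists of their families and partners. The 4 lists had 81 tested members besides the 3 genes, of which 41 rose, 32 fell and 8 did not pass in the model groups over Ctrl in edgeR. Of all tested genes 51.5% rose and 43.4% fell, so these counts are near the shares of any genes in the tables. Their median log2 fold change was 0.37, beside 0.27 over all tested genes. In M+NSPCC1 over Model none of the 81 passed, 4 had an unadjusted p under 0.05, limma on log2 FPKM called none, and DESeq2 called 2. Those 2 were Frem1, an extracellular matrix protein of basement membranes (log2 fold change 0.76), and Pabpc4, a poly(A)-binding protein (0.30), both higher in M+NSPCC1.

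Of 6 tested netrins and netrin receptors 2 rose and 4 fell in the model groups over Ctrl, where 94.9% of all tested genes passed (51.5% higher, 43.4% lower). Unc5b, a netrin receptor of the UNC5 family, averaged 311 ± 44.5 CPM in M+NSPCC1, 334 ± 88.9 in Model and 33.9 ± 8.74 in Ctrl (SD, 4 libraries a group). Its log2 fold change over Ctrl was 3.25 (SE 0.22). Neo1, which encodes neogenin, a receptor for netrins and repulsive guidance molecules, rose by 1.96 (SE 0.16). Unc5a, another receptor, and Rgmb, a repulsive guidance molecule, had log2 fold changes of -2.0 (SE 0.27) and -0.94 (SE 0.10). Ntn1, which encodes netrin-1 and is named here after its values were seen, had 118 ± 14.5 CPM in M+NSPCC1, 114 ± 30.1 in Model and 226 ± 17.4 in Ctrl (SD, n = 4 each; log2 fold change -0.97). It fell where Ntn4 rose. Between M+NSPCC1 and Model the differences (log2, M+NSPCC1 over Model) of Unc5b, Neo1 and Ntn1 were -0.10 (SE 0.21), -0.03 (SE 0.17) and 0.05 (SE 0.16), none of which passed.

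Of 24 tested basement membrane genes 8 rose, 14 fell and 2 did not pass over Ctrl, with a median log2 fold change of -0.80, beside 51.5% higher, 43.4% lower and a median of 0.27 over all tested genes. Laminins, trimers of an alpha, a beta and a gamma chain, are the partners of netrin-4 in these sheets. Lamc1, the laminin gamma-1 chain, averaged 408 ± 38.2 CPM in M+NSPCC1, 369 ± 42.8 in Model and 840 ± 57.2 in Ctrl (SD, n = 4 each), a log2 fold change over Ctrl of -1.12 (SE 0.08). Lamb2, a beta chain, fell by 1.74, Lama2, an alpha chain of muscle and nerve, by 1.23, and Fbln1, which encodes fibulin-1, by 1.26 on the log2 scale.

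The list of nucleotidyltransferases and poly(A) tail genes, around Tent5b, had 28 tested members, of which 21 rose, 3 fell and 4 did not pass over Ctrl (median 0.52), beside 51.5% higher and 43.4% lower over all tested genes. Pabpc1, the main cytoplasmic poly(A)-binding protein, averaged 1435 ± 34.1 CPM in M+NSPCC1, 1578 ± 144 in Model and 774 ± 71.8 in Ctrl (SD, n = 4 each; log2 fold change 0.96). Cnot6, a deadenylase that shortens poly(A) tails, and Btg1, which recruits such deadenylases, rose by 0.997 and 0.86, and Pabpc4 fell by 1.02 on the log2 scale. Tent5a, the paralogue of Tent5b in the tables, is named after its values were seen. It averaged 55.7 ± 7.08 CPM in M+NSPCC1, 56.3 ± 36.2 in Model and 162 ± 26.8 in Ctrl (SD, 4 libraries a group), and it fell by 1.53 on the log2 scale (SE 0.27) where Tent5b rose by 2.63.

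Around Ppfibp2, 23 liprins and partners were tested, of which 10 rose, 11 fell and 2 did not pass over Ctrl (median -0.84, the same with the 2 genes that had no count in Ctrl placed at a bound of 3 counts over the group). Over all tested genes 51.5% were higher and 43.4% lower, near the shares of this list. Ppfia1, which encodes the partner liprin-alpha-1, averaged 221 ± 15.2 CPM in M+NSPCC1, 250 ± 30.4 in Model and 78.3 ± 4.77 in Ctrl (SD, n = 4 each), with a log2 fold change of 1.59 (SE 0.09). Ptprf, the LAR phosphatase that liprins bind, rose by 1.61 and Dlg3, a membrane scaffold, by 0.96, while Kif1b, a kinesin motor, fell by 1.13 on the log2 scale. Ppfibp1, the other beta liprin, is named after its values were seen and rose by 0.79 (SE 0.16). Between M+NSPCC1 and Model the differences (log2, M+NSPCC1 over Model) of Ppfia1, Ptprf and Ppfibp1 were -0.17 (SE 0.09), 0.08 (SE 0.17) and 0.05 (SE 0.18), none of which passed.

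**Figure D2:**
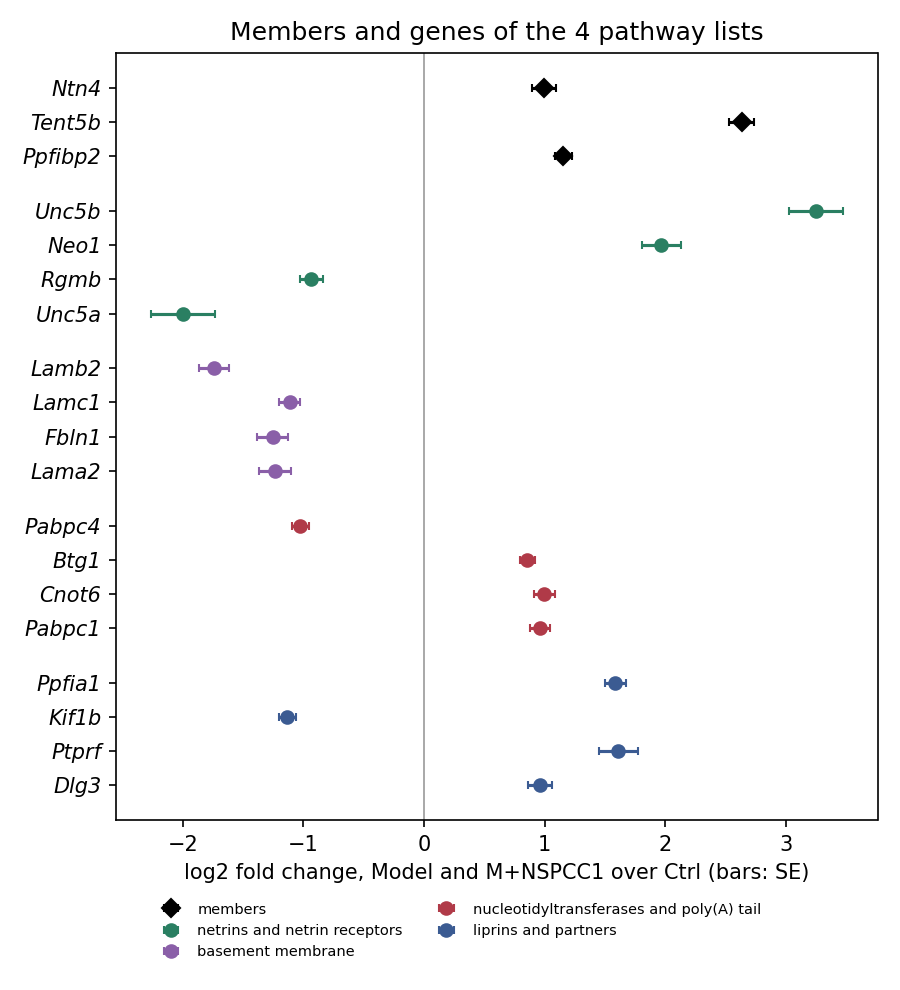
Log2 fold change of the mean of Model and M+NSPCC1 over Ctrl (x axis; bars are SE) for Ntn4, Tent5b and Ppfibp2 (black diamonds) and for the 4 genes with the smallest p of each list (coloured points). The 3 genes lie at 0.995, 2.63 and 1.15; the netrin receptors Unc5b and Neo1 lie to the right of 0 and the basement membrane genes shown lie to the left.

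The share of counts from hair genes differed between the model groups and Ctrl, and the relation of the 3 genes to that share was examined. In the hair shaft and inner root sheath list 91 of 91 tested genes rose over Ctrl, beside 51.5% of all tested genes. Of the 91, 9 had no count in any Ctrl library. The list held keratins, keratin-associated proteins, trichohyalin and follicle regulators. Its summed share of the counts was 5.59% to 9.89% in M+NSPCC1, 8.91% to 13.0% in Model and 0.0198% to 0.0628% in Ctrl libraries. The M+NSPCC1 and Model ranges overlapped. Of the 91 genes 85 had a lower fitted value in M+NSPCC1 than in Model, though by edgeR none passed after adjustment, as over all tested genes. In edgeR 26 of the 91 had an unadjusted p under 0.05, beside 6.57% of all tested genes. Krt71, Tchh and Krt25, structural proteins of the inner root sheath and the 3 most abundant in Model skin, differed between M+NSPCC1 and Model (M+NSPCC1 over Model, log2) by -0.26 (SE 1.13), -0.36 (SE 0.73) and -0.21 (SE 1.09). These SEs are from the fit of all 12 libraries, in which Ctrl shares 1 estimate of spread with the other groups. Krt71 averaged 12814 ± 3014 CPM in M+NSPCC1, 15391 ± 3354 in Model and 26.4 ± 49.4 in Ctrl (SD, n = 4 each). The SEs and calls of such genes thus also hold the spread among Ctrl libraries, which was large beside the Ctrl mean. Shh, a secreted signal of growing hair follicles, had 62.4 ± 8.29 CPM in M+NSPCC1, against 41.1 ± 6.41 in Model skin (SD, n = 4 each). The median log2 fold change of M+NSPCC1 over Model was -0.69 over the 91 genes, with quartiles of -0.82 and -0.26, beside 0.01 over all tested genes. The values of Ntn4, Tent5b and Ppfibp2 lay within those quartiles. They are the differences by which the genes were chosen, so nothing is read from their place about hair.

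**Figure D3:**
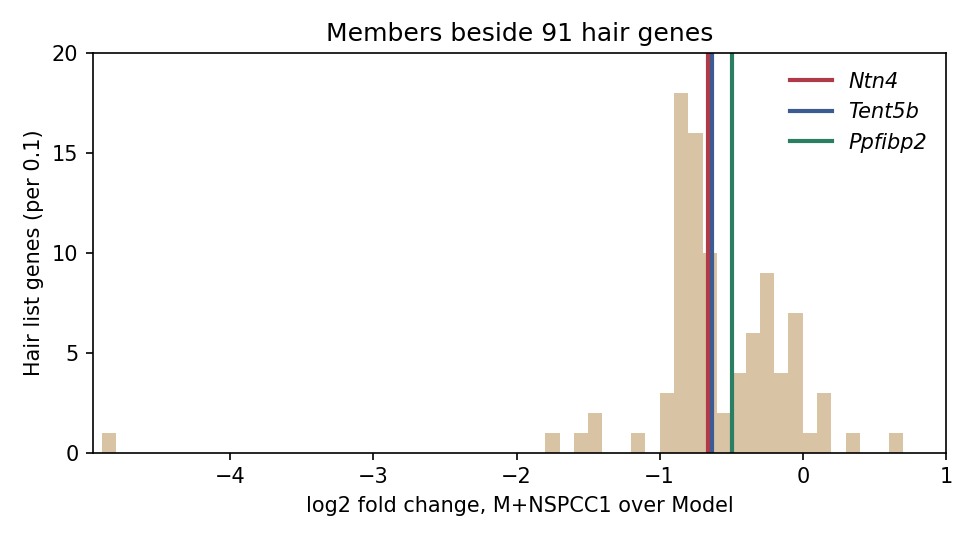
Number of the 91 hair list genes in each 0.1 step of the log2 fold change of M+NSPCC1 over Model (bars), with Ntn4, Tent5b and Ppfibp2 at -0.66, -0.63 and -0.50 (lines). The 3 lines fall between the quartiles of the hair genes, -0.82 and -0.26, and mark the differences by which the genes were chosen.

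Within the groups, no correlation of the 3 genes with the hair share passed the test over 8 libraries. Deviations of log2 CPM from the group mean were correlated with those of the log2 hair share over the 8 M+NSPCC1 and Model libraries, with exact two-sided permutation within groups. Pearson's r was 0.66 for Tent5b (permutation p = 0.161, adjusted 0.484 over 3 genes), 0.08 for Ntn4 (p = 0.847, adjusted 0.983) and -0.02 for Ppfibp2 (p = 0.983, adjusted 0.983). Spearman's rho was 0.52 (exact permutation p = 0.271, adjusted 0.812), -0.10 (p = 0.854, adjusted 0.854) and -0.12 (p = 0.818, adjusted 0.854). Without M+NSPCC1 1 and Model 2, whose hair shares were farthest from the median, r was 0.17 for Tent5b, 0.05 for Ntn4 and -0.75 for Ppfibp2, so the value of Tent5b rests on those libraries. The median r was 0.83 over 90 hair genes and 0.05 over all 6275 genes averaging 10 CPM or more. Of those genes 83.0% had a lower r than Tent5b, 51.0% a lower r than Ntn4 and 47.0% a lower r than Ppfibp2. The p-value that chose the 3 genes favours a small spread within groups, and a gene that followed the hair share would have a wider one. Weak correlations may thus be favoured by the choice, and the test cannot show that the genes are unrelated to hair.

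M+NSPCC1 1, with the lowest hair share of the 8, also had the lowest Tent5b, Ntn4 and Ppfibp2 of its group. M+NSPCC1 3, with the highest hair share of its group at 9.89%, had the highest Tent5b of its group at 187.1 CPM. Among Model libraries the order of Ppfibp2 was the reverse of that of hair. Model 3 had 77.0 CPM at a hair share of 8.91%, Model 1 had 73.2 CPM at 10.6%, Model 4 had 69.7 CPM at 11.9% and Model 2 had 67.2 CPM at 13.0%. For Ntn4 the groups went different ways. In M+NSPCC1 it had 34.8, 37.4, 40.2 and 37.6 CPM at hair shares of 5.59%, 8.88%, 8.90% and 9.89%, against 64.1, 53.9, 67.6 and 52.1 CPM in Model at 8.91%, 10.6%, 11.9% and 13.0%. Within the groups its correlation with hair share was positive in M+NSPCC1 (r = 0.76) and negative in Model (r = -0.38). The pooled r of 0.08 thus joins opposite signs. The sign also differed between the groups for Ppfibp2, positive in M+NSPCC1 (r = 0.47) and negative in Model (r = -0.9955). For Tent5b r was 0.86 in M+NSPCC1 but only 0.04 in Model. With 4 libraries a group these signs are a description and the difference between groups was not tested.

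**Figure D4:**
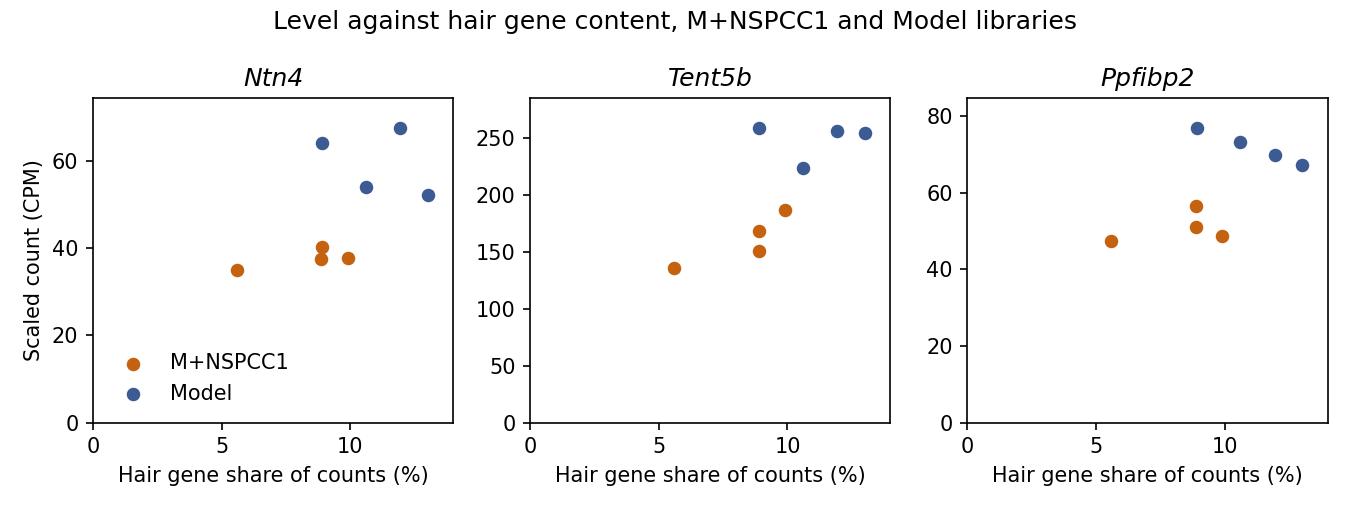
Scaled count (CPM, y axis) of Ntn4, Tent5b and Ppfibp2 against the share of counts in hair shaft and inner root sheath genes (%, x axis) in the 4 M+NSPCC1 and 4 Model libraries. In M+NSPCC1 all 3 genes are lowest in the library with the lowest hair share, 5.59%, and in Model Ppfibp2 falls in order as the hair share goes up; the separation of the groups on the y axis is fixed by the choice of the genes.

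With the log2 hair share as a covariate in a fit of the 8 libraries, the log2 fold change of M+NSPCC1 over Model was -0.64 for Ntn4 (SE 0.15), -0.49 for Tent5b (SE 0.11) and -0.50 for Ppfibp2 (SE 0.11). The same 8 libraries without the covariate gave -0.66 (SE 0.11), -0.63 (SE 0.11) and -0.50 (SE 0.09). These are the differences by which the genes were chosen, so they are given as values and nothing is read from them about hair. The slope per doubling of the hair share was 0.34 for Tent5b (SE 0.17; adjusted p = 0.293), 0.05 for Ntn4 (SE 0.21; adjusted p = 0.916) and 0.00 for Ppfibp2 (SE 0.16; adjusted p = 0.999) in edgeR, adjusted over 7404 genes. In that fit 47 genes had a slope that passed. The choice of the 3 genes favours a small spread within groups and so may also favour flat slopes. Scaled by the counts outside the hair list, the M+NSPCC1 libraries averaged 43.1 ± 2.66 CPM for Ntn4, 184 ± 25.9 for Tent5b and 58.5 ± 4.08 for Ppfibp2 (SD, n = 4). The Model libraries averaged 68.3 ± 9.33, 285 ± 17.9 and 82.5 ± 4.65 CPM (SD, n = 4). That the groups stay apart on this scale follows from the choice of the genes.

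The shares of other marker lists also differed between the libraries. Their counts of genes that rose or fell stand beside all tested genes, of which 51.5% rose and 43.4% fell over Ctrl. Skeletal muscle genes, of which 33 of 34 tested fell and 1 rose over Ctrl, made up 1.65% to 2.66% of the counts in M+NSPCC1, 0.681% to 2.35% in Model and 11.4% to 11.9% in Ctrl libraries. With the log2 muscle share as a covariate the log2 fold change of M+NSPCC1 over Model was -0.66 for Ntn4, -0.57 for Tent5b and -0.55 for Ppfibp2. Genes of the interfollicular epidermis made up 1.12% to 1.62%, 1.03% to 1.76% and 1.53% to 2.01% of the counts in M+NSPCC1, Model and Ctrl libraries, and the skin keratin genes Krt5 and Krt10 were detected in all of them. Outer root sheath, companion layer, bulge and dermal papilla genes made up 0.473% to 0.550%, 0.525% to 0.657% and 0.186% to 0.202%. Melanocyte genes, of which 18 of 18 tested rose over Ctrl, made up 0.298% to 0.450% in M+NSPCC1, 0.171% to 0.466% in Model and 0.0246% to 0.0272% in Ctrl libraries. Cell cycle genes, of which 33 of 35 rose, made up 0.465% to 0.532%, 0.283% to 0.492% and 0.0885% to 0.105% in those groups. Other lists had lower shares in the model groups. Sebaceous gland genes made up 0.602% to 0.928%, 0.497% to 1.24% and 2.10% to 2.78% in M+NSPCC1, Model and Ctrl, and leukocyte genes 0.253% to 0.382%, 0.195% to 0.645% and 0.789% to 0.977%. Adipocyte genes made up 0.275% to 0.497%, 0.236% to 0.525% and 0.982% to 1.12%, and fibroblast genes 0.763% to 0.952%, 0.487% to 1.29% and 1.56% to 1.84%. Endothelial, smooth muscle and pericyte, and Schwann cell and nerve genes were each under 0.2% in all libraries, with the model libraries below every Ctrl library. Their part in the rise of the 3 genes over Ctrl was not tested.

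The genes whose levels were most like those of the 3 over the 8 M+NSPCC1 and Model libraries were found by Pearson's r of log2 CPM among 6016 genes averaging 10 CPM or more there. These r values hold the difference between the groups by which the 3 genes were chosen, and all libraries share the same scaling. For Ntn4 they were Myzap (0.97), Atp2c2 (0.96), Gla (0.96), Padi1 (0.96) and Cldn3 (0.95). For Ppfibp2 they were Myzap (0.97), Atp2c2 (0.97), Tab2 (0.94), Wasl (0.94) and Pgm1 (0.93). Myzap, a protein of adherens junctions, and Atp2c2, a calcium and manganese pump of the secretory pathway, thus led both lists. Atp2c2 averaged 15.96 CPM in M+NSPCC1, 34.6 in Model and 5.12 in Ctrl skin. Padi1, a peptidylarginine deiminase that modifies proteins of keratinising cells, is in the hair list, with 104 CPM in M+NSPCC1, 198 in Model and 1.62 in Ctrl skin. For Tent5b the genes were Dusp14 (0.98), Dsc2 (0.97), Jmy (0.97), Krtap31-1 (0.97) and Rnf39 (0.97). Dusp14, a dual-specificity phosphatase, had 171, 278 and 27.4 CPM in M+NSPCC1, Model and Ctrl skin. Its deviations from the group means followed those of Tent5b (r = 0.95), and those of the other 14 pairs had r from 0.64 to 0.84. The deviations enter the r by which these genes were picked, so high values are favoured by that pick. Among the 3 genes themselves the deviations had r of 0.34 for Ntn4 and Tent5b, 0.32 for Ntn4 and Ppfibp2 and 0.19 for Tent5b and Ppfibp2.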

How the data were processed

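Total RNA from mouse skin was made into messenger RNA libraries, per the labels' protocols, and 12 libraries were grouped by sample title. The authors deposited estimated counts and FPKM values per transcript row. HISAT2 2.2.1, RSEM 1.3.1, DESeq2 1.34.0 and build mm10 appear, without roles, in the submitters' processing notes. No source used here states how rows were selected. Estimated counts were summed by gene ID over 10720 rows (7902 genes) and rounded. Totals ran from 9717338 to 10952623 per library; these cover part of each library. Tests used R 4.3.3 and edgeR 4.0.16 (quasi-likelihood, TMM, default expression filter, all 12 libraries, no covariate; adjusted p under 0.05), tested on simulated data. Log2 CPM used a prior count of 2. Alternatives were DESeq2 1.42.0, its size factors, whole-library depth, other filters, limma 3.58.1 on log2(FPKM + 1) or log2(FPKM + 0.1), covariates, the replicate block and each library left out. The members and lists were chosen with earlier results of these data known. Genes named were the 3 members, 4 per pathway list by smallest p, the 3 most abundant hair genes with Shh, and the 5 most similar per member, except where stated. No table of protein sequences was used here. The labels do not state what the replicate numbers share, and the main fit treated the samples as unpaired.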

Additional observations from a re-analysis of the deposited data

Results flagged for a closer look

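The values of 2 libraries stood far from the other libraries of their group. Tent5b had 223.8 CPM in Model 1, below the 254.3 to 259.1 CPM of the other 3 Model libraries. The hair share was 0.0628% in Ctrl 2, above the 0.0198% to 0.0237% of the other 3 Ctrl libraries. A gap of this relative size arises by chance in about 1 of 20 groups, and 15 groups were examined. Without Model 1 the log2 fold change of M+NSPCC1 over Model for Tent5b was -0.68, against -0.63 with all libraries. The hair share of Ctrl 2 enters none of the relations with hair content, which use the M+NSPCC1 and Model libraries.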

How the results depend on the processing

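The rise of the 3 genes over Ctrl passed under each of 21 alternatives, with log2 fold changes of 0.83 to 1.19 for Ntn4, 2.47 to 2.83 for Tent5b and 0.99 to 1.35 for Ppfibp2. M+NSPCC1 over Model stayed negative under each of 24, at -0.72 to -0.58, -0.71 to -0.49 and -0.55 to -0.43. The genes were chosen by this contrast, so its lasting sign follows from the choice and is given only as a description. Values against Ctrl moved with scaling. Model over Ctrl was 2.78 for Tent5b and 1.23 for Ppfibp2 with DESeq2's size factors, 2.78 and 1.23 in the DESeq2 test, 3.12 and 1.58 with whole-library depth, and 3.11 and 1.56 with limma on log2(FPKM + 0.1). M+NSPCC1 over Ctrl, in that order of settings, was 0.51, 0.51, 0.88 and 0.87 for Ntn4 and 0.75, 0.75, 1.12 and 1.11 for Ppfibp2; for Tent5b it was 2.53 with whole-library depth. The calls of DESeq2 among list genes were 1 higher in the basement membrane list and 1 higher in the poly(A) list. The share of the distance to Ctrl, whose alternatives were chosen after seeing the data, was 49.7%, 21.7% and 35.5% for Ntn4, Tent5b and Ppfibp2 on the log2 scale, and for Ntn4 54.3% in FPKM and 54.3% with whole-library depth. The correlation of Ppfibp2 with hair share turned to 0.032 when scaled outside the hair list and to 0.18 on log2(FPKM + 1). With each library left out it ran from -0.82 to 0.28 for Ppfibp2 and from -0.38 to 0.40 for Ntn4. The cause of these moves was not tested. No pairing by replicate number was seen: same-numbered deviations correlated at -0.236 to 0.116, and 0 of 12 libraries correlated best with their own number in both other groups. With 4 libraries a group these values cannot show that same-numbered samples shared nothing. With the replicate block, 3861 genes rose and 3299 fell over Ctrl, against 3932 and 3315 without it, and the correlation of Ntn4 with hair was -0.57 (permutation adjusted p = 0.286). Scaling moved the split of higher and lower calls over Ctrl to 3362 and 3361 with DESeq2's size factors. The small number of libraries and the partial tables limit all of these values.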

Other observations

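Within the lists, genes of the basement membrane, and genes of the alpha liprin family, went in different directions over Ctrl. The genes named here were chosen after their values were seen. Lama5, an alpha chain of epithelial laminins, averaged 205 ± 31.6 CPM in M+NSPCC1, 199 ± 54.4 in Model and 67.1 ± 7.95 in Ctrl (SD, 4 libraries a group), and rose by 1.59 on the log2 scale (SE 0.18). Lama3 rose by 0.67 and Fras1, a basement membrane protein of developing skin and hair, by 2.51, while Nid1, which encodes the linker nidogen-1, fell by 1.03. Among alpha liprins, Ppfia3 averaged 12.9 ± 3.25 CPM in M+NSPCC1, 13.8 ± 2.03 in Model and 3.76 ± 2.45 in Ctrl skin and rose. Ppfia4 averaged 0.626 ± 1.25, 0.719 ± 1.44 and 17.1 ± 7.26 CPM in the same order of groups and fell (SD, n = 4 each). In edgeR all 6 passed after adjustment over 7638 genes, as did 94.9% of all tested genes.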
